A study of Mus musculus with 6 samples.

Results

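The SLAM family receptors and the adaptors that couple them to T-cell signalling were followed in the RNA of activated CD8+ T cells treated with an inhibitor of LSD1. The genes were chosen by family, with earlier results of these data known but with no measured value in the rule: the receptors Slamf1, Slamf6, Slamf7, Cd244a, Cd48, Cd84 and Ly9, and the adaptors Sh2d1a and Sh2d2a, 9 of the 16281 genes with a row of counts. CD8+ T cells came from the spleen of OT1 mice on the C57BL/6 strain. These mice carry the T-cell receptor transgene Tg(TcraTcrb)1100Mjb, which recognises a peptide of ovalbumin, so that all samples share this receptor. All cells were activated for 48 h with plate-bound anti-CD3 (2 μg/ml), soluble anti-CD28 (2 μg/ml) and IL-2 (20 ng/mL) and then expanded in IL-2 for 3 days. In the GSK group (3 samples), GSK2879552 at 0.5 μM, an irreversible LSD1 inhibitor, was present during both activation and expansion, and the Veh group (3 samples) received vehicle. The comparison asks which of these receptors and adaptors had a different RNA level after culture with the inhibitor.

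SLAM receptors are surface proteins of the immunoglobulin superfamily found on blood cells. Most of them bind a copy of themselves on a neighbouring cell, while Cd244 binds Cd48. In most of these receptors, though not in Cd48, tyrosine motifs in the tail can recruit SAP, the small SH2 adaptor encoded by Sh2d1a. SAP brings in the kinase Fyn, and without SAP the same motifs can bind inhibitory phosphatases. Loss of SAP in humans causes X-linked lymphoproliferative disease. Slamf6 (also called Ly108) is widely used as a surface marker of progenitor-like exhausted CD8+ T cells. Sh2d2a encodes TSAd, an SH2 adaptor of T cells that binds Lck. It is not a member of the SAP family in the strict sense and is grouped with Sh2d1a here by its SH2 domain and its place near the T-cell receptor.

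The promoter sequences of the receptors whose RNA differed between the groups, Slamf6 and Cd48, are shown with that of Cd84, the nearest receptor gene to Slamf6. Each is the stretch of 250 bases before a RefSeq transcription start in GRCm38.p6, on the plus strand of chromosome 1, 5′ to 3′. The Cd48 window lies within the span of its gene, which begins at chr1:171681245, so it precedes a start inside the gene. The windows of Cd244a and Slamf7, counted below, also lie within their genes. Capitals mark matches, on either strand, to a T-box motif (AGGTGT), a RUNX motif (TGTGGT), an ETS motif (AGGAAG), a TCF/LEF motif (CTTTGA) or a GFI1 core (AAATCA).
Slamf6, chr1:171917212-171917461: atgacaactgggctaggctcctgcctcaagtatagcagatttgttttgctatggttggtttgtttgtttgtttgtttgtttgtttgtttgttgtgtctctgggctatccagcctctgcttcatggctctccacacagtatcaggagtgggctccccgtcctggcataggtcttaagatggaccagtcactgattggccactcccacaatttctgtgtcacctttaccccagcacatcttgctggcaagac
Cd48, chr1:171681742-171681991: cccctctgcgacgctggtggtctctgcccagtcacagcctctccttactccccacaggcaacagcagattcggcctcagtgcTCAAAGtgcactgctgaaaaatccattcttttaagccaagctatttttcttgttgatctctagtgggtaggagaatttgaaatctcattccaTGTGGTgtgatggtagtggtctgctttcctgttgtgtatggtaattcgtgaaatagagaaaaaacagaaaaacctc
Cd84, chr1:171839447-171839696: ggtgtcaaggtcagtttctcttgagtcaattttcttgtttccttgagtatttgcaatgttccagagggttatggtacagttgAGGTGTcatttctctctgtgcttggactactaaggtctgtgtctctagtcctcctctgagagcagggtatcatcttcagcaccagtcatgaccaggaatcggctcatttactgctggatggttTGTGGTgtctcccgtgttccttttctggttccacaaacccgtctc
The Slamf6 window held none of the 5 motifs. The Cd48 window held a TCF/LEF match 163 to 168 bases before the start, on the opposite strand, and a RUNX match at 71 to 76 bases. The Cd84 window held a T-box match at 163 to 168 bases and a RUNX match at 40 to 45 bases. Of the 6 receptor promoters in the reference table (those of Slamf1, Slamf6, Slamf7, Cd244a, Cd48 and Cd84), 2 held the T-box motif, 2 RUNX, 2 ETS, 1 TCF/LEF and 1 the GFI1 core. Over all 32851 promoter windows of this length the shares were 11.8% for T-box, 14.0% for RUNX, 29.5% for ETS, 13.8% for TCF/LEF and 12.4% for GFI1. These letters are short and their presence does not show binding.

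Total counts lay between 18288447 and 19846720 per sample. Cd8a, which encodes a chain of the CD8 co-receptor, had 516 ± 19.0 CPM (counts scaled to library size) in Veh and 541 ± 13.1 CPM in GSK (SD, n = 3), while Cd4 had at most 34 counts in a sample. The summed level of the 6 CD8 T-cell markers with counts was 2190 to 2300 CPM in Veh and 2010 to 2150 CPM in GSK, and 3 of them were lower in GSK: Cd3d, Cd3e and Cd3g, which encode chains of the CD3 complex. Natural killer cell markers matter here because those cells also carry SLAM receptors. Over 5 genes they summed to 3.70 to 3.99 CPM in Veh and 5.52 to 5.88 CPM in GSK. Of the 5 genes, 3 had fewer than 10 counts in every sample, and Ncr1 had 1 count over all 6 samples. The 2 that were tested, Klrb1c and Klra7, did not pass (adjusted p = 0.127 and 0.135), and their groups overlapped. The B-cell list summed to 6.36 to 8.16 CPM in Veh and 7.93 to 9.57 CPM in GSK (7 genes, 4 of them under 10 counts in every sample). Within it Cd22 was higher in GSK (0.409 ± 0.187 to 2.60 ± 0.279 CPM, adjusted p = 0.000151), while Cd79b went from 6.51 ± 1.02 to 4.90 ± 0.238 CPM and did not pass (adjusted p = 0.0697). The myeloid list summed to 11.7 to 16.5 and 10.3 to 13.7 CPM (7 genes, 3 under 10 counts), the dendritic cell list to 3.27 to 4.84 and 1.77 to 2.62 CPM (3 genes, 1 under 10 counts), and the megakaryocyte and erythroid list to 1.90 to 2.63 and 0.892 to 1.56 CPM (6 genes, 5 under 10 counts). In these 3 lists Fcgr3, Itgax and Itga2b were lower in GSK (adjusted p = 0.0359, 0.00229 and 0.0204). CD4 T-cell markers summed to 43.1 to 52.9 CPM in Veh and 39.2 to 44.8 CPM in GSK (3 genes). No marker with counts was at 0 in all samples. The part of these cells in the results was not tested, and in bulk RNA fewer cells of a type and less RNA per cell cannot be told apart. Kdm1a, the gene of LSD1, had 92.8 ± 5.45 CPM with vehicle and 87.1 ± 3.54 CPM with GSK (adjusted p = 0.224), and since the inhibitor acts on the protein this does not check the labels.

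All 9 genes passed the filter on low counts and were tested by the quasi-likelihood method of edgeR, with p-values adjusted over 11698 genes by Benjamini-Hochberg. Slamf6 and Sh2d2a were higher in GSK, Cd48 was lower, and 6 genes did not pass an adjusted p of 0.05. Over all genes tested, 16.6% were higher and 15.5% lower by the same rule, so that 3 of 9 is close to the background of 32.1%. None of the 9 passed that threshold with a fold over 1.5 as well, in edgeR or in DESeq2, against 6.32% of all genes in edgeR (2.22% higher and 4.09% lower), and 3 had an unadjusted p under 0.05, against 43% of all genes tested. For those same 3 genes the GSK and Veh samples did not overlap, which held for 46.7% of all genes (23.7% with GSK higher, 23% with GSK lower). The median log2 fold change was 0.02 over the 9 genes and -0.00387 over all genes tested.

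**Figure D1:**
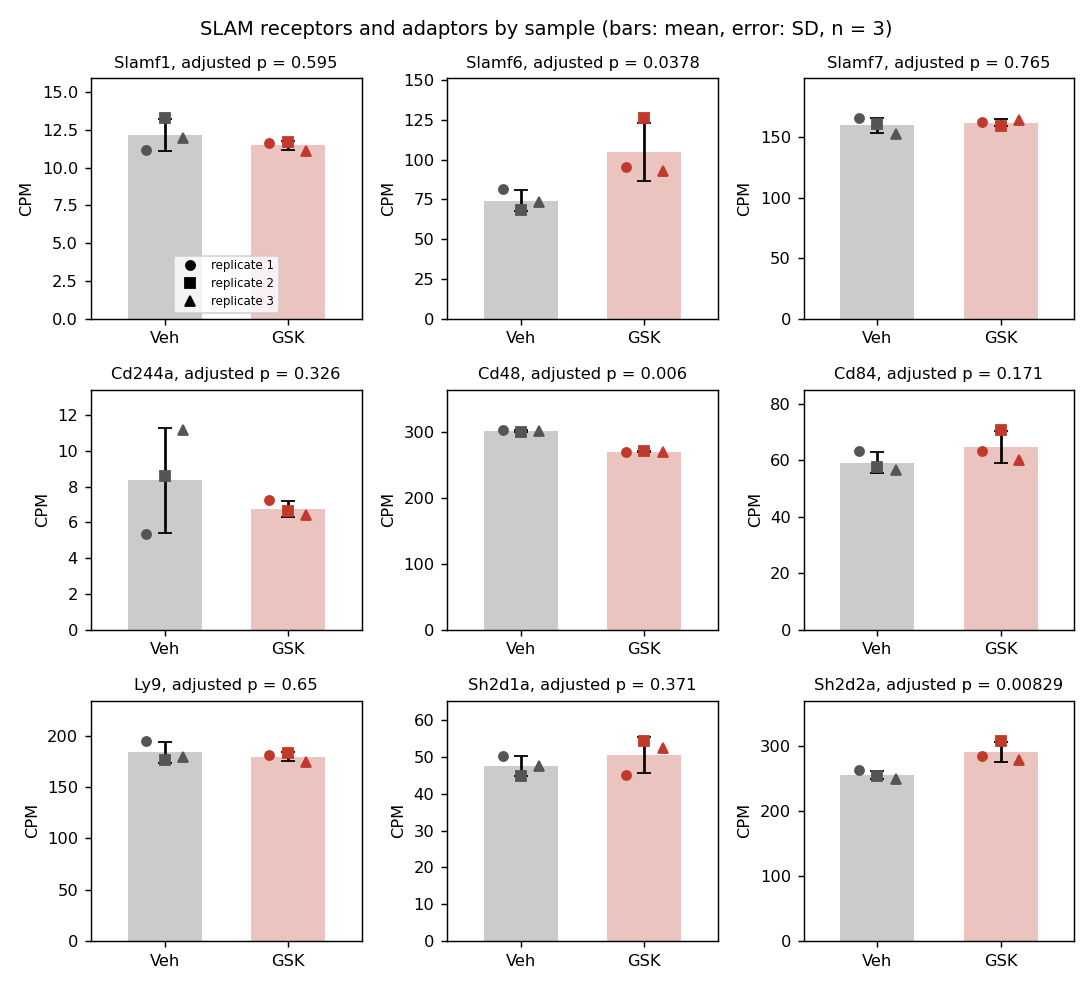
CPM of each receptor and adaptor gene in each sample, with 1 panel per gene, bars for the group mean, error bars for the SD (n = 3) and marker shapes for the replicate number. The groups do not overlap for Slamf6, Cd48 and Sh2d2a and overlap for the other genes, and the axis of each panel starts at 0.

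Slamf6 had the largest change of the 9 genes. Its levels were 81.3, 68.2 and 73.3 CPM in the Veh samples and 95.5, 125.9 and 92.7 CPM in the GSK samples. Every GSK sample lay above every Veh sample, and GSK replicate 2 stood well above the other GSK samples. The mean rose from 74.2 ± 6.60 to 105 ± 18.4 CPM (SD, n = 3), a log2 fold change of 0.50 (SE 0.137, 95% interval 0.16 to 0.83, adjusted p = 0.0378), or 1.41-fold with an interval of 1.12 to 1.78. The interval holds both smaller changes and changes over 1.5-fold. The call rested on the libraries in the fit: without GSK replicate 2 the log2 fold change was 0.34 with an adjusted p of 0.00119, but without Veh replicate 1, 2 or 3 it was 0.57, 0.44 or 0.49 with adjusted p-values of 0.0541, 0.103 and 0.0952, and with no filter on low counts the adjusted p was 0.0991. DESeq2 gave an adjusted p of 9.13e-06. Slamf6 (Entrez 30925) lies at chr1:171917458-171948958 on the plus strand of GRCm38 and overlaps the long non-coding RNA gene Gm37065.

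Cd48, the GPI-anchored ligand of Cd244 and of Cd2, went the other way by a small amount. Its levels were 303.4, 299.8 and 301.4 CPM in Veh and 269.6, 271.3 and 269.1 CPM in GSK. The replicates of each group were nearly identical and the groups were apart in every sample. At a mean of 5426 counts, counting alone would on average give a wider spread, so this closeness is no measure of stability. The mean fell from 301.5 ± 1.77 to 270.0 ± 1.14 CPM, a log2 fold change of -0.16 (SE 0.0373, 95% interval -0.24 to -0.08, adjusted p = 0.0060), which corresponds to 10.5% less RNA. Cd48 stayed past the threshold in all 12 alternatives, with adjusted p-values of 0.00232 to 0.0314. It lies at chr1:171681245-171705258 on the plus strand (Entrez 12506).

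Cd244a, which encodes the receptor 2B4 that binds Cd48, was the lowest of the receptors per length and, over the 6 samples and within Veh, the most variable of the 9 genes. Its levels were 5.33, 8.58 and 11.2 CPM in Veh and 7.25, 6.63 and 6.41 CPM in GSK. All GSK samples lay within the range of the Veh samples, and the coefficient of variation was 35.1% in Veh and 6.38% in GSK. The GSK value is below what counting alone would on average give at a mean of 143.8 counts. The log2 fold change was -0.31 (SE 0.225, 95% interval -0.81 to 0.19, adjusted p = 0.326). It moved with the Veh sample left out: without Veh replicate 1 it was -0.55 with an adjusted p of 0.0272, and without Veh replicate 3 it was -0.04 with an adjusted p of 0.901. Cd244a (Entrez 18106, chr1:171558718-171585316, plus strand) overlaps the long non-coding RNA gene Gm35200.

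Cd2, the T-cell adhesion receptor that also binds Cd48, was higher in GSK, with means of 322 ± 11.2 and 358 ± 20.3 CPM (log2 fold change 0.15, adjusted p = 0.0265). Its levels were 335.2, 318.2 and 314.0 CPM in Veh and 341.6, 380.7 and 352.1 CPM in GSK, so the nearest samples of the groups were close. Cd2 lost the threshold without GSK replicate 2 (log2 fold change 0.10, adjusted p = 0.0726), without Veh replicate 2 (0.14, adjusted p = 0.0854) and without Veh replicate 3 (0.13, adjusted p = 0.107). Cd2ap, the adaptor that binds the tail of Cd2, went from 65.2 ± 4.38 to 82.0 ± 3.30 CPM (log2 fold change 0.33, adjusted p = 0.00114). Of the 4 genes on the Cd2 side that were tested, 2 rose and 2 did not pass, where 16.6% of all genes tested rose.

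The receptors that bind themselves and did not pass were Slamf1, Slamf7, Cd84 and Ly9. Cd84, a receptor of B and T cells, platelets and myeloid cells, was at 63.3, 57.5 and 56.4 CPM in Veh and 63.1, 70.9 and 60.0 CPM in GSK. The groups overlapped only at Veh replicate 1, and the log2 fold change was 0.13 (95% interval -0.02 to 0.28, adjusted p = 0.171). Slamf7 (also called CRACC), found on natural killer cells, plasma cells and cytotoxic T cells, had the narrowest range of the 9 genes over the 6 samples, at 165.4, 160.8 and 152.6 CPM in Veh and 162.2, 158.9 and 164.4 CPM in GSK. Its highest sample was 1.08 times its lowest, and its log2 fold change of 0.02 had a 95% interval of -0.08 to 0.12. Ly9 (also called CD229) was at 195.2, 176.8 and 179.5 CPM in Veh and 181.5, 183.3 and 174.6 CPM in GSK, with a log2 fold change of -0.03 (95% interval -0.14 to 0.07). Slamf1, the founding receptor of the family (CD150), was at 11.2, 13.3 and 12.0 CPM in Veh and 11.6, 11.7 and 11.1 CPM in GSK. The groups overlapped, and the log2 fold change was -0.08 (95% interval -0.31 to 0.15). The intervals of all 4 exclude a change as large as that estimated for Slamf6, in either direction. Slamf1 lies at chr1:171767131-171801184, Cd84 at chr1:171839697-171890718, both on the plus strand, and Ly9 at chr1:171588613-171607410 and Slamf7 at chr1:171632403-171653037, both on the minus strand.

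Of the adaptors, Sh2d2a rose and Sh2d1a did not pass. Sh2d2a was at 261.8, 252.7 and 249.3 CPM in Veh and 283.7, 307.4 and 278.3 CPM in GSK. The groups did not overlap. The mean went from 255 ± 6.46 to 290 ± 15.5 CPM, a log2 fold change of 0.19 (SE 0.0463, 95% interval 0.09 to 0.29, adjusted p = 0.00829), or 13.8% more RNA. It stayed past the threshold in all 12 alternatives, with adjusted p-values of 0.0024 to 0.0425. Sh2d1a, which encodes SAP itself, was at 50.3, 44.7 and 47.5 CPM in Veh and 45.2, 54.5 and 52.4 CPM in GSK. Its groups overlapped, and the log2 fold change was 0.09 (95% interval -0.07 to 0.25, adjusted p = 0.371). Sh2d2a lies at chr3:87846755-87855722 and Sh2d1a at chrX:42502565-42522097, both on the plus strand and away from the receptor cluster. Of other relatives, Slamf9 had at most 2 counts in any sample and Sh2d1b1 had 2 to 6, too few to test. Slamf8 and Sh2d1b2 had no row of counts under these names.

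GSK replicate 2 was the highest GSK sample for 7 of the 9 genes, the exceptions being Cd244a and Slamf7. Its lead over GSK replicate 1 was small for Slamf1 (11.69 against 11.6 CPM), Cd48 (271.3 against 269.6 CPM) and Ly9 (183.3 against 181.5 CPM). The share of all genes that were highest in this sample is not given, so the count cannot be read as a trait of these genes. Within GSK, the coefficient of variation ran from 0.422% for Cd48 to 17.6% for Slamf6, and within Veh from 0.587% for Cd48 to 35.1% for Cd244a.

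**Figure D2:**
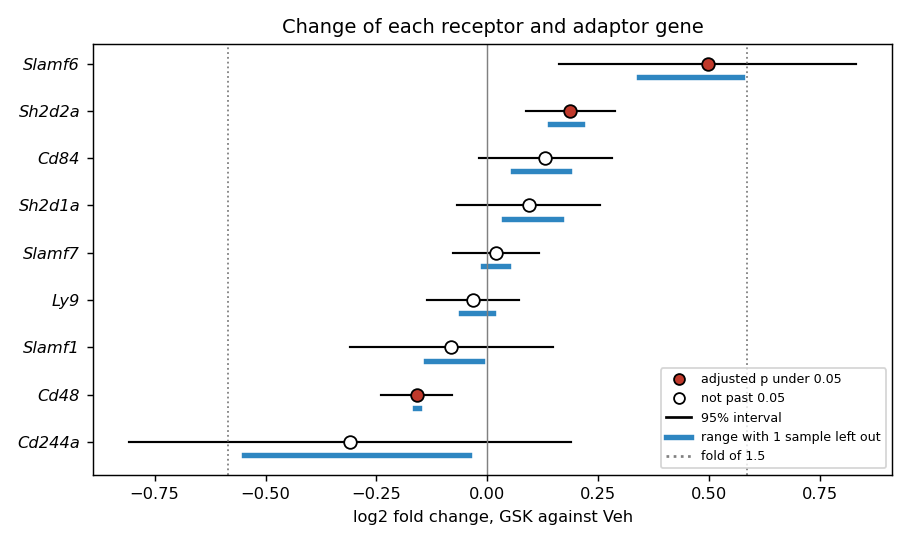
Log2 fold change of GSK over Veh for the 9 receptor and adaptor genes, with points for the estimate (filled where the adjusted p is under 0.05), thin bars for the 95% interval, thick blue bars for the range when each sample in turn is left out, and dotted lines at a fold of 1.5. The intervals of Slamf6, Sh2d2a and Cd48 leave out 0 and the intervals of the other 6 genes span it.

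To compare the genes with each other, CPM was divided by the length of the longest coding transcript in GENCODE M21. On this scale Cd48 was by far the most abundant, at 254 ± 1.49 CPM per kb in Veh and 228 ± 0.961 CPM per kb in GSK. Ly9 followed at 73.9 ± 3.99 and 72.3 ± 1.85 CPM per kb, then Sh2d2a at 56.8 ± 1.44 and 64.6 ± 3.45, Slamf7 at 40.1 ± 1.63 and 40.7 ± 0.700, and Sh2d1a at 38.8 ± 2.26 and 41.4 ± 3.99 CPM per kb. At the low end stood Cd84 (17.2 ± 1.08 and 18.8 ± 1.63), Slamf6 (13.0 ± 1.15 and 18.3 ± 3.21), Slamf1 (4.50 ± 0.393 and 4.26 ± 0.117) and Cd244a (2.23 ± 0.781 and 1.80 ± 0.115 CPM per kb). Slamf7 and Sh2d1a did not differ beyond their spread, since Sh2d1a stood above Slamf7 in Veh replicate 3 and in GSK replicates 2 and 3. Slamf6 stood above Cd84 only in GSK replicate 2, and the order of these 2 genes also depends on the length used.

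As shares of the summed receptor level per length, Cd48 made up 62.8% ± 0.851 in Veh and 59.3% ± 0.783 in GSK (SD, n = 3). Slamf6 made up 3.43%, 2.97% and 3.19% in the Veh samples and 4.36%, 5.62% and 4.28% in the GSK samples. The other shares moved less: Ly9 held 18.2% and 18.8%, Slamf7 9.91% and 10.6%, Cd84 4.25% and 4.90%, Slamf1 1.11% in both groups, and Cd244a 0.552% and 0.469% in Veh and GSK. The summed CPM of the 7 receptors, not divided by length, was 799 ± 22.7 in Veh and 799 ± 26.1 in GSK, and per kb the sum was 405 ± 7.67 in Veh and 384 ± 6.69 in GSK. No test was made of the shares or of the sum, because the genes were chosen with results of these data known.

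**Figure D3:**
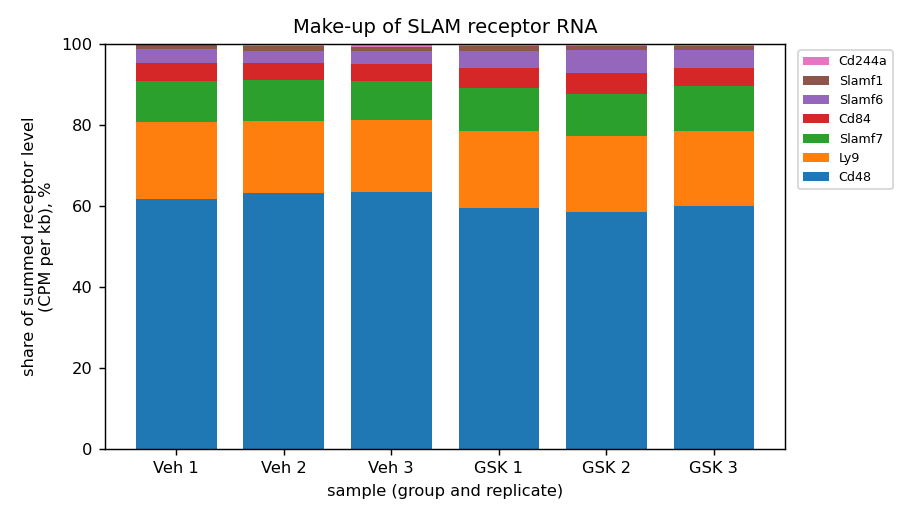
Share of each receptor in the summed receptor level, in percent of CPM per kb of transcript, for each sample of both groups. Cd48 holds the largest share in every sample, and the Slamf6 share lies between 2.97% and 3.43% in Veh and between 4.28% and 5.62% in GSK.

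The signalling partners of the receptors were followed in a list of 19 kinases, phosphatases and adaptors, all of them tested. In GSK, 6 rose, 1 fell and 12 did not pass, against 16.6% and 15.5% of all genes tested, and their median log2 fold change was 0.08. Fyn, the Src-family kinase that SAP recruits, was at 295.6, 271.0 and 259.9 CPM in Veh and 329.4, 365.0 and 340.7 CPM in GSK, with a log2 fold change of 0.33 (SE 0.0536, adjusted p = 0.000754). Dok2, an adaptor that dampens signalling through Ras, was at 188.3, 189.0 and 190.7 CPM in Veh and 238.2, 231.4 and 265.1 CPM in GSK, with a log2 fold change of 0.37 (SE 0.0512, adjusted p = 0.000209). Every GSK sample lay above every Veh sample for both genes. Csk, the kinase that holds Src-family kinases in check, went from 301 ± 2.51 to 348 ± 5.99 CPM (log2 fold change 0.21, adjusted p = 0.00114). Vav1, an exchange factor downstream of Fyn and the T-cell receptor, went from 170 ± 5.09 to 198 ± 2.71 CPM (log2 fold change 0.22, adjusted p = 0.00193). These 4 genes passed in all 12 alternatives. The gene that fell, named after its value was seen, was Plcg1, a phospholipase that carries the T-cell receptor signal to calcium (235 ± 9.62 to 196 ± 14.3 CPM, log2 fold change -0.26, adjusted p = 0.00322). The other genes that rose, named in the same way, were Plcg2 (28.6 ± 1.98 to 36.1 ± 3.52 CPM, log2 fold change 0.33, adjusted p = 0.00942) and Lck (840 ± 5.14 to 916 ± 21.0 CPM, log2 fold change 0.13, adjusted p = 0.0105). None of the 19 combined that threshold with a fold over 1.5 in edgeR, and 10 had an unadjusted p under 0.05, against 43% of all genes tested.

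**Figure D4:**
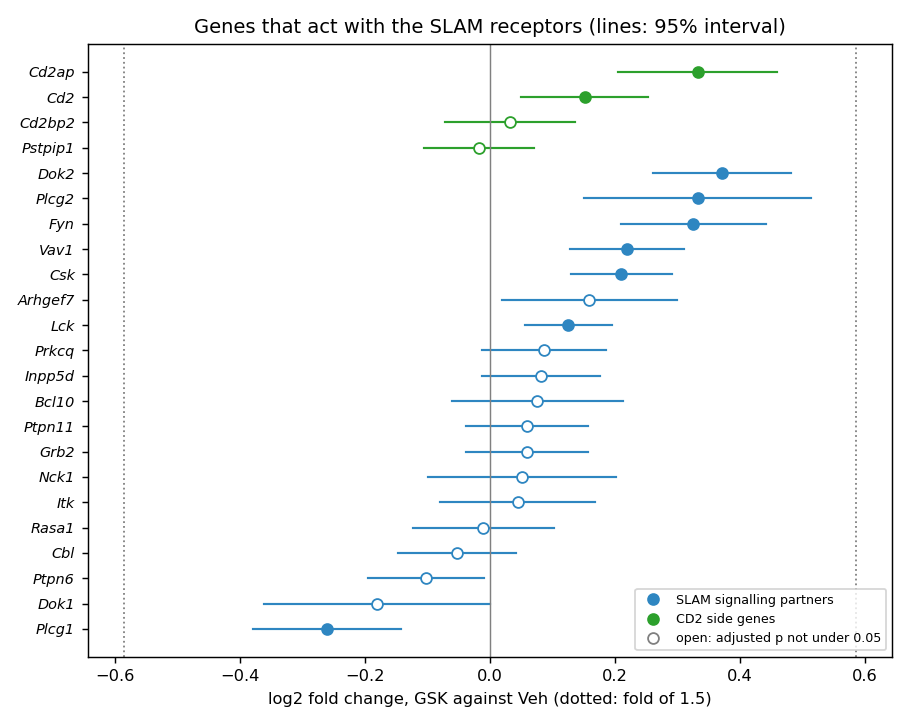
Log2 fold change of GSK over Veh for the signalling partners and the genes on the Cd2 side, with points for the estimate (filled where the adjusted p is under 0.05), bars for the 95% interval and dotted lines at a fold of 1.5. Dok2, Fyn, Cd2ap, Vav1 and Csk lie to the right of 0 by 0.21 to 0.37.

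The 7 receptor genes lie in a row on chromosome 1 over 390 kb, in the order Cd244a, Ly9, Slamf7, Cd48, Slamf1, Cd84 and Slamf6. The gaps between neighbours ran from 3.3 kb (Cd244a to Ly9) to 61.9 kb (Cd48 to Slamf1). The called receptors, Cd48 and Slamf6, have Slamf1 and Cd84 between them, neither of which passed. Within 250 kb of the outermost receptors there were 19 other genes with counts, of which 15 were tested, 1 rose and 3 fell, with a median log2 fold change of -0.05. A call in either direction was made for 32.1% of all genes tested, so 4 of 15 is near the background. The gene that rose was Pea15a, a small death effector domain protein (log2 fold change 0.57, adjusted p = 1.23e-05, from 62.1 ± 0.974 to 92.4 ± 5.01 CPM). Those that fell were Usf1, a transcription factor (-0.31, adjusted p = 0.00226), Nit1 (-0.32, adjusted p = 0.0039) and Tstd1 (-1.06, adjusted p = 0.0048). Tstd1 was the only one past a fold change of 1.5, from a low level of 2.94, 3.22 and 3.15 CPM in Veh and 1.21, 1.47 and 1.77 CPM in GSK.

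**Figure D5:**
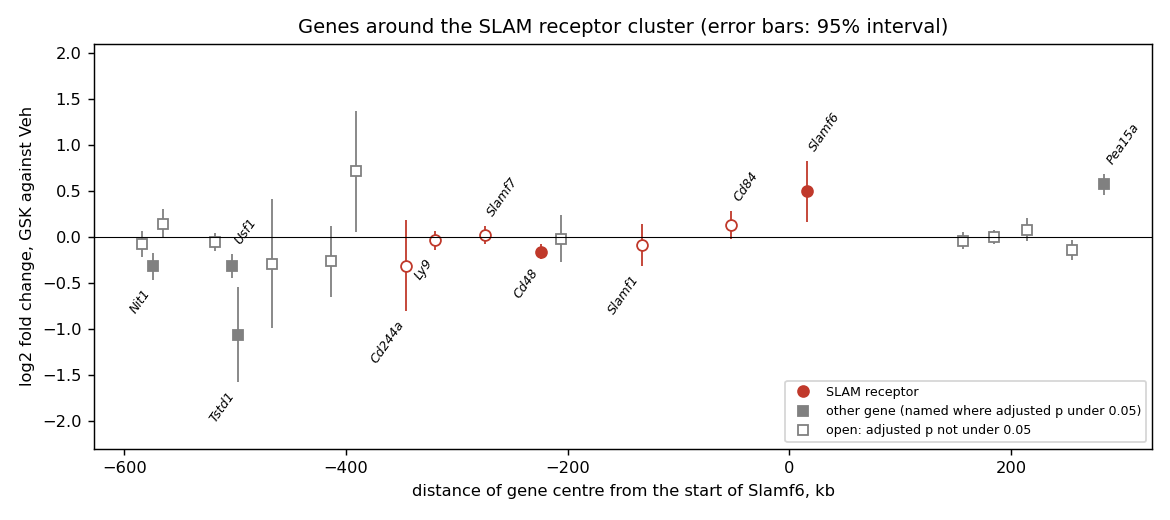
Log2 fold change of GSK over Veh, with the 95% interval, against the distance of the gene centre from the start of Slamf6 in kb, for the receptor genes and their neighbours. Filled symbols mark an adjusted p under 0.05, and between Cd48 and Slamf6 lie Slamf1 and Cd84, which are open.

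Over the 6 samples, the log2 CPM of Slamf6 followed that of Sh2d2a (Pearson r = 0.98) and Cd84 (r = 0.91) most closely among the 9 genes, and ran opposite to Cd48 (r = -0.80). Among tested genes averaging 50 counts or more, Tyw3, Ppt1, Txk and Ptcd2 were the most like Slamf6, with r of 0.988 to 0.998. For Cd48 the 5 most like had r of 0.997 to 0.999, with Agbl5 and Lysmd3 at the top. All these values share the same 6 libraries and the same contrast, so they describe the samples and carry no p.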

How the data were processed

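RNA was measured by stranded mRNA sequencing in 3 GSK and 3 Veh samples, grouped by the sample labels. Per the labels and the study's methods, the authors trimmed reads with Trimmomatic, mapped them to GRCm38 with HISAT2 (version 2.1.0) and counted them per gene with HTSeq (version 0.11.2); the deposited values are whole read counts, not normalized. The annotation release and the strand setting are not given in the sources used here, so counts of overlapping genes are uncertain. The authors also computed expression with Cufflinks (version 2.2.1) and tested with DESeq2 (version 1.22.2); neither was used. The count table also holds gene annotations of the authors, of which GO terms were read for the genes.

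From the counts, GSK was set against Veh with edgeR (version 4.0.16, in R version 4.3.3) after TMM scaling and the filterByExpr filter, by the robust quasi-likelihood test and p-values adjusted by Benjamini-Hochberg across every tested gene. CPM was computed with TMM-scaled library sizes, and log2 CPM used a prior count of 2. Intervals are at 95%. Only the edgeR and DESeq2 tests were tried on simulated counts, with planted changes larger than any estimated for the receptors and adaptors. The outcome is not given here. Positions are those of RefSeq for GRCm38, matched by Entrez identifier, and lengths those of the longest coding transcript in GENCODE M21. Transcripts of Slamf1, Slamf7, Cd244a, Cd48 and Ly9 shared no stretch of 31 bases with other genes, and the shared part was 0.408% for Slamf6, 2.47% for Cd84, 0.659% for Sh2d1a and 0.844% for Sh2d2a.

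The 9 genes and all gene lists were chosen with earlier results of these data known. Named were all 9 genes, and from each list or the locus up to 4 genes with the smallest p among those with an adjusted p under 0.05. The rule also takes the 5 genes most like Slamf6 and the 5 most like Cd48 by Pearson r, of which 4 and 2 are named; a gene that the rule takes is not reported here. The labels name separate samples. A figure legend of the study gives 3 mice per group, and its text says that cells from 3 separate OT1 mice were treated. Whether the same mice supplied both groups, and whether same-numbered samples share a mouse, is not given. The samples were treated as unpaired. The p-values set the difference between the groups against a variance estimated from these samples and moderated across genes. They are therefore not a measure of the spread of each gene by itself. With 3 against 3, an exact permutation test cannot go below p = 0.1. The alternatives were DESeq2 (version 1.42.0), RLE size factors, 2 other filters, a replicate block, no robust estimation, a test of the fold against 1.5 and leaving out each sample. For receptor shares, counts not divided by length and, chosen after seeing the data, the union of exons were used.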

Additional observations from a re-analysis of the deposited data

How the results depend on the processing

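Of the 108 results for the 9 genes under an alternative, 101 kept their direction and their side of an adjusted p of 0.05. The genes called higher were 1 in place of 2 with no filter on low counts, and 1 to 2 when 1 sample was left out, and those called lower were 1 to 2, the lower count of higher genes coming without Veh replicate 1, 2 or 3 and the higher count of lower genes without Veh replicate 1. The changed calls are those of Slamf6 and Cd244a. The cause was not tested. Slamf7 and Ly9, which were not called, changed sign without Veh replicate 3 (log2 fold change -0.01073, range -0.01073 to 0.04669 when 1 sample was left out) and without Veh replicate 1 (0.01383, range -0.05903 to 0.01383).

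Over all genes, those called higher numbered 1288 to 2090 when 1 sample was left out, with the lowest count without GSK replicate 1. Tested against a fold of 1.5, 69 genes were higher and 65 lower, against 260 and 479 when an adjusted p and a fold over 1.5 were both required; none of the 9 genes passed either. Signalling partners called lower were 1 to 2 (2 without GSK replicate 2), and terminal exhaustion genes called higher 1 to 2, both when 1 sample was left out, with 3 of the latter without robust estimation. Progenitor genes called higher were 2 with DESeq2, with no filter and without robust estimation, and 0 to 2 when 1 sample was left out, against 1. Genes on the Cd2 side called higher were 1 to 2 when 1 sample was left out.

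Both groups carry replicate numbers, and whether these pair the samples is not given, so they were not used as pairs: the deviations of same-numbered samples correlated at -0.0515, -0.0814 and 0.164, and 2 of the 6 samples correlated best with their own number. With the replicate block, the log2 fold changes were 0.49 for Slamf6, -0.16 for Cd48 and 0.19 for Sh2d2a (adjusted p = 0.0337, 0.0229 and 0.0201), and 1 gene on the Cd2 side was called higher in place of 2, because Cd2 was at 0.15 with an adjusted p of 0.0557.

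Receptor shares follow the length used. Not divided by length, the shares in Veh and GSK were 37.8% and 33.8% for Cd48, 23% and 22.5% for Ly9, 20.0% and 20.3% for Slamf7, 9.28% and 13.1% for Slamf6, 7.39% and 8.08% for Cd84, 1.52% and 1.44% for Slamf1, and 1.05% and 0.847% for Cd244a. With the union of exons they were 66.4% and 63.3% for Cd48, 17.6% and 18.3% for Ly9, 9.13% and 9.86% for Slamf7, 2.64% and 3.96% for Slamf6, and 2.47% and 2.87% for Cd84, and in GSK 1.19% for Slamf1 and 0.502% for Cd244a. In each of these the share of Cd48 was lower and that of Slamf6 higher in GSK. The length of a gene is the same in both groups, so its fold change does not move with the length used. These directions are therefore no separate check of the changes. Depth limits Cd244a and Slamf1 most, with mean counts of 143.8 and 224.2 per sample.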

Other observations

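Slamf6 is commonly read together with other genes of progenitor-like CD8+ T cells. Of 14 progenitor genes tested, 1 rose and 5 fell, with a median log2 fold change of -0.27, against 16.6% and 15.5% of all genes. Tcf7, which encodes the transcription factor TCF1, was at 347.4, 264.7 and 286.7 CPM in Veh and 134.7, 143.4 and 93.1 CPM in GSK (log2 fold change -1.28, adjusted p = 0.0122). Klf2, which maintains homing receptors, fell by 1.05 on the log2 scale (adjusted p = 0.00304), Bach2, a repressor of effector genes, by 0.63 (adjusted p = 0.000681) and Lef1, a relative of TCF1, by 0.39 (adjusted p = 0.000946). The GSK and Veh samples did not overlap for any of these 4. Named after their values were seen, the other gene that fell was S1pr1, the receptor that lets T cells leave lymphoid tissue (-1.23, adjusted p = 0.0175), and the gene that rose was Myb, a transcription factor (0.19, adjusted p = 0.0424).

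Of 12 genes linked to terminal exhaustion, 11 were tested, 2 rose and 3 fell, against 16.6% and 15.5% of all genes, with a median log2 fold change of -0.09. Id2, an inhibitor of E proteins, went from 209 ± 9.29 to 311 ± 14.7 CPM (log2 fold change 0.57, adjusted p = 5.1e-06). Ctla4 and Pdcd1, which encode inhibitory receptors, fell by 1.36 and 0.92 (adjusted p = 0.00335 and 0.000249), and Entpd1, an ectoenzyme, by 0.37 (adjusted p = 0.000734). The other gene that rose, also named after its value was seen, was Tigit, an inhibitory receptor (0.25, adjusted p = 0.0351). Both lists were chosen with results of these data known.

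In the deposited GO annotation, 7 of the 9 genes share the term adaptive immune response, which 140 genes of the table carry. Cd48 and Sh2d2a do not carry it.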
